A study of Mus musculus with 6 samples.

Results

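Nuclear receptors are transcription factors that sense lipophilic signals. Most bind DNA through a zinc-finger domain, many pair with a retinoid X receptor (RXR), and ligand binding swaps bound corepressors for coactivators. In macrophages and dendritic cells they link lipid, vitamin and hormone signals to metabolism and to the inflammatory programme. A list of 40 mouse nuclear receptor genes was examined here, which leaves out the oxysterol receptor LXR-alpha, PPAR-gamma and the retinoic acid receptors. A gene was represented by the probe set that the platform's gene table gives that single symbol. By this 38 of the 40 genes were measured, each by 1 probe set, among 19938 genes in all. Nr1h2 and Nr2e3 were not analysed here.

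The data were 6 Affymetrix Mouse Gene 1.0 arrays of total RNA from bone marrow cells of C57B/6 mice. GM-CSF, a cytokine that drives myeloid growth and differentiation, had been given as recombinant protein at 20 ng/ml over a culture of 6 days, and all cells were otherwise untreated (unstimulated). The labels name a dendritic population (n = 3) and a macrophage population (n = 3) of this culture, and the question was how their expression profiles differ. Neither the source of each replicate (separate mice or cultures) nor the way the populations were separated is stated in the labels. The spread behind each p-value is that between arrays, and it may be technical.

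Values are the authors' RMA values on the log2 scale. Each difference is the dendritic minus the macrophage mean of these values, ± SE, and a gene is said to be higher or lower, to rise or to fall, where its limma adjusted p is under 0.05. Precision is limited by the small number of arrays. Without detection calls it is not known whether a dim gene was expressed, and levels of different probe sets are not compared. In such bulk samples, fewer cells of a type and less RNA per cell cannot be told apart.

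The populations were set against marker lists. Of 9 measured macrophage markers 9 were lower in the dendritic population. Of 10 dendritic markers 6 were higher and 2 were lower, Itgax and Clec9a, while H2-Ab1 and Xcr1 did not pass the test. The mean level over 9 neutrophil markers was 7.66 and 7.84 in replicate 1 of the dendritic and macrophage populations and 6.38 to 6.67 on the other 4 arrays, and 1 of the 9 (Mpo) was lower in the dendritic population. Of 7 mast cell and basophil, 6 T and NK cell, 2 erythroid and 5 stromal markers none passed the test in limma (unadjusted p under 0.05 for 1, 0, 0 and 0 of them). Of 5 eosinophil markers 1 was lower (Ear6), and of 5 B cell markers 1 was higher (Cd79a). The part of such cells in the results below was not tested.

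Of the 38 receptors 3 were higher and 4 were lower in the dendritic population, and 31 did not pass. The orphan receptors Nr4a3 and Nr4a2 and the vitamin D receptor Vdr rose, by 17.4-, 12.8- and 6.18-fold. The thyroid hormone receptor Thra, the partner receptor Rxra, the heme-binding repressor Nr1d1 and the fatty acid receptor Ppard fell, by 2.83-, 2.69-, 1.81- and 1.48-fold. Among all genes 21.6% were called, 9.98% higher and 11.6% lower, so a count of 7 of 38 (18.4%) is near the background and is no result about the family as such. The median difference was 0.10 over the 38 receptors and 0.03 over all genes. A log2 difference of at least 2 was called for 3 of the 38 receptors and for 3.31% of all genes.

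**Figure D1:**
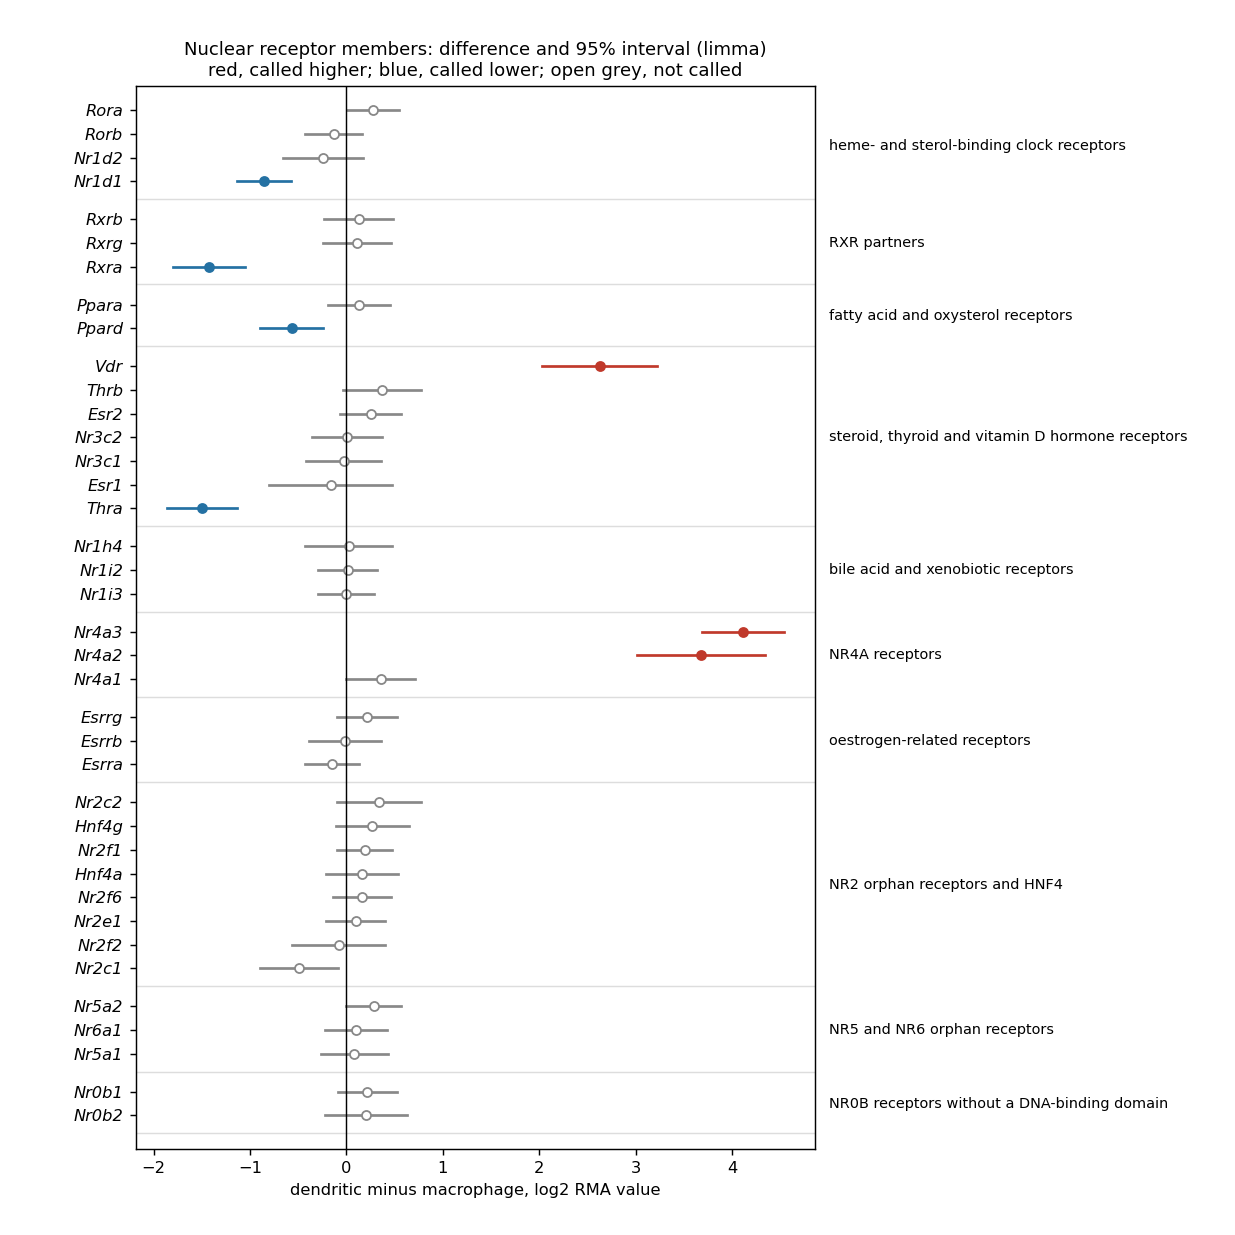
Difference of each of the 38 nuclear receptors (dendritic minus macrophage, log2 RMA value, horizontal axis) with its 95% interval from limma, grouped by role. The 3 red receptors lie at 2.63 to 4.12 and the 4 blue ones at -1.50 to -0.57, while the 31 open grey ones lie between -0.49 and 0.37.

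The NR4A receptors are immediate-early genes with no known need for a ligand, whose promoters are switched on within minutes by calcium, cAMP and inflammatory signals. Their promoters are shown because the 3 genes of this subfamily differed in the same direction but by unlike sizes, and 2 of them were called. The sequences are the 250 bases before the RefSeq gene start in GRCm38.p6, 5′ to 3′ on the gene's strand, with Vdr, the other receptor that rose, as a comparison. Capitals mark the core of the cAMP response element, TGACG, or its reverse complement CGTCA.
Nr4a3 (chr4:48045055-48045304, plus strand): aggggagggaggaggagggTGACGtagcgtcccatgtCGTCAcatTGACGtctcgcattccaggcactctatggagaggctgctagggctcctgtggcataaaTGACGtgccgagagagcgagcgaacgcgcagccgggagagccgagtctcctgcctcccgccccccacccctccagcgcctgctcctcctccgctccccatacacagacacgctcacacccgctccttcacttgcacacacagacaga
Nr4a2 (chr2:57124004-57124253, minus strand): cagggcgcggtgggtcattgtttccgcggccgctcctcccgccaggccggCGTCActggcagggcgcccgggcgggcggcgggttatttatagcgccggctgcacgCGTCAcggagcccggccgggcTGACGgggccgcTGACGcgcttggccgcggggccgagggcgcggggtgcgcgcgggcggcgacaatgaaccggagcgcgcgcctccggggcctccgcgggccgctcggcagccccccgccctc
Nr4a1 (chr15:101266596-101266845, plus strand): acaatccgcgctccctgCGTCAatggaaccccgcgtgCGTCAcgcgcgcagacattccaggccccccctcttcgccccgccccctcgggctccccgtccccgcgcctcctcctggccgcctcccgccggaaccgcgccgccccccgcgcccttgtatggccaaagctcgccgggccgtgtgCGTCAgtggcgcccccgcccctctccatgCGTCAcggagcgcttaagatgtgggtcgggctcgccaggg
Vdr (chr15:97908297-97908546, minus strand): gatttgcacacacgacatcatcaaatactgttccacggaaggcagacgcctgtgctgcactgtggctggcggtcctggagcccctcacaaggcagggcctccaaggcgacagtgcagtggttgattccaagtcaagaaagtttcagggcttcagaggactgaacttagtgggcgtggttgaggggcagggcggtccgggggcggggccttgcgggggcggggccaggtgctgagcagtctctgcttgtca

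Each NR4A promoter held 4 cores of the cAMP response element and the Vdr promoter held 0. Over windows of 300 bases (250 before to 50 after the start, both strands) at least 1 core stood in 20.8% of 32851 RefSeq promoter windows, and at least 4 in 0.231%, or 76 windows. Of 50 windows of 36 listed receptors (34 of them measured) 3 held at least 4 cores, and these were the 3 NR4A windows. Nr2e1, an orphan receptor of neural stem cells, had 3 cores. The cores lay on both strands in Nr4a3 and Nr4a2 and on the opposite strand alone in Nr4a1. A match is a description of letters, not a binding site. Thra, Nr3c1, Nr5a1 and Hnf4g had no window in the table used.

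**Figure D2:**
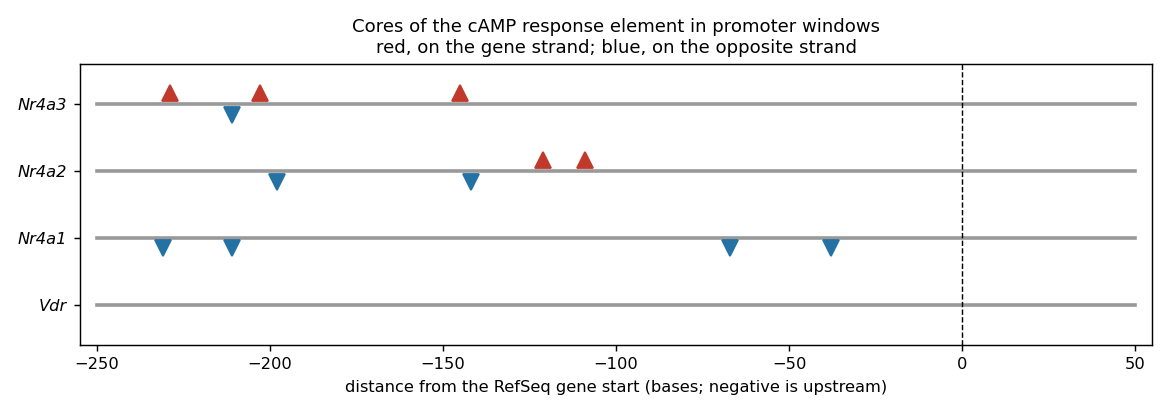
Position of each core of the cAMP response element (triangles) along the promoter window of Nr4a3, Nr4a2, Nr4a1 and Vdr, in bases from the RefSeq gene start (horizontal axis, negative upstream). Upward red triangles are on the gene's strand and downward blue ones on the opposite strand; the NR4A genes have 4 each and Vdr has 0.

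Nr4a3 (Nor1; probe set 10504838) had the largest difference among the 38 receptors. Its log2 values were 9.56, 9.49 and 9.32 on the dendritic arrays and 4.97, 5.35 and 5.70 on the macrophage arrays. Every dendritic array was thus above every macrophage array, with a spread inside each population that was small beside the gap. The means were 9.46 ± 0.12 (SD, n = 3) and 5.34 ± 0.37, a difference of 4.12 ± 0.19 (limma adjusted p = 1.13e-06).

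Nr4a2 (Nurr1; probe set 10482772) followed, with log2 values of 9.49, 8.36 and 9.49 on the dendritic and 5.31, 5.28 and 5.72 on the macrophage arrays. Dendritic replicate 2 was the lowest of its population and still far above the macrophage arrays. The difference was 3.68 ± 0.29 (limma adjusted p = 2.78e-05).

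Nr4a1 (Nur77; probe set 10427035), a receptor that Ly6C-low monocytes need, showed no such gap. Its log2 values were 4.86, 5.05 and 5.40 on the dendritic and 4.81, 4.76 and 4.68 on the macrophage arrays. The populations did not overlap, but dendritic replicate 1 lay just above macrophage replicate 1. Nr4a1 lay under the median of all genes on 5 of the 6 arrays, and RMA compresses differences of dim probe sets. The difference of 0.35 ± 0.16 did not pass (limma adjusted p = 0.165, unadjusted p = 0.0499). Its 95% interval ran from 0.0 to 0.71, below the intervals of Nr4a2 (from 3.01) and Nr4a3 (from 3.69). Nr4a1 was called with array weights (0.46, adjusted p = 0.0216) and without both replicate 1 arrays (0.51, adjusted p = 0.0460), a setting chosen after seeing the data, in limma; without dendritic replicate 3 it was 0.21 (adjusted p = 0.475).

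**Figure D3:**
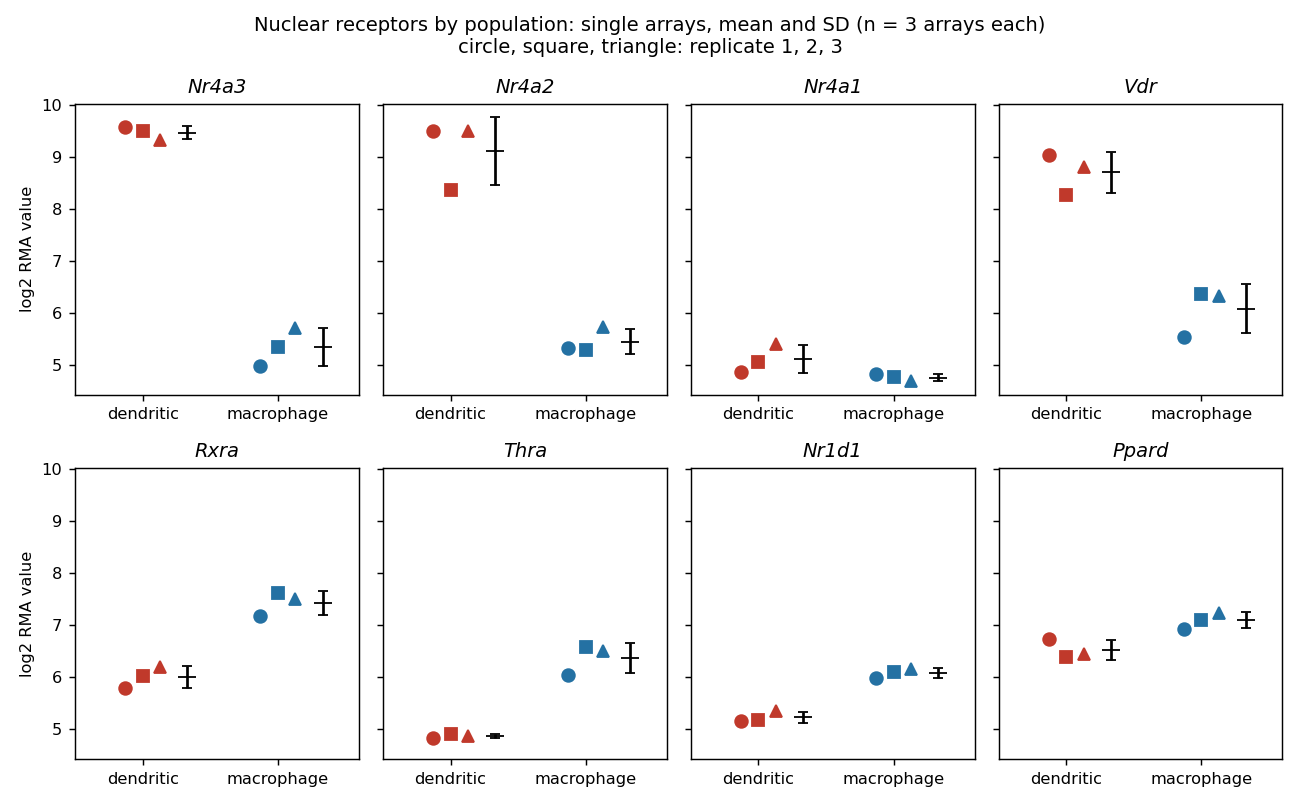
Log2 RMA value (vertical axis) of the 3 NR4A receptors and the other 5 called receptors on each of the 6 arrays, with the mean and SD of each population (n = 3). The upper row shows the gaps of Nr4a3, Nr4a2 and Vdr beside Nr4a1, whose highest value is 5.40, and the lower row shows the 4 receptors that were lower on every dendritic array.

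Of 7 steroid, thyroid and vitamin D hormone receptors 1 was higher, 1 was lower and 5 did not pass. Vdr (probe set 10432032), which binds the active form of vitamin D and acts as a dimer with RXR, had log2 values of 9.04, 8.27 and 8.80 on the dendritic and 5.53, 6.36 and 6.32 on the macrophage arrays. Every dendritic array lay above every macrophage array. Dendritic replicate 1 was the highest of its population and macrophage replicate 1 the lowest of its own. The difference was 2.63 ± 0.26 (limma adjusted p = 0.000106), and 2.19 without both replicate 1 arrays (limma adjusted p = 5.05e-05). Thra (probe set 10381006), the alpha thyroid hormone receptor, had values of 4.82, 4.91 and 4.87 on the dendritic and 6.03, 6.57 and 6.50 on the macrophage arrays. The dendritic arrays lay within 0.1 of each other and below every macrophage array, a difference of -1.50 ± 0.16 (limma adjusted p = 0.000163). Its beta counterpart Thrb differed by 0.37 ± 0.18 and did not pass (adjusted p = 0.214).

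The receptor for glucocorticoids, Nr3c1 (probe set 10458569), was nearly equal in the populations. Its log2 values were 6.61, 6.27 and 6.35 on the dendritic and 6.76, 6.26 and 6.29 on the macrophage arrays, with replicate 1 the highest in each. The difference was -0.03 ± 0.17, with a 95% interval from -0.42 to 0.36 (limma adjusted p = 0.960). The mineralocorticoid receptor Nr3c2 also gave a difference near 0 (0.00 ± 0.16), with all its values between 3.06 and 3.52.

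The oestrogen receptor Esr1 (probe set 10367600) depended on 1 array. Its log2 values were 6.32, 6.17 and 6.35 on the dendritic and 5.68, 6.75 and 6.89 on the macrophage arrays, so macrophage replicate 1 lay below all dendritic arrays and the other two macrophage arrays above them. The difference was -0.16 ± 0.28 (limma adjusted p = 0.814). Without macrophage replicate 1 it was -0.54 and called (limma adjusted p = 0.0291), and -0.56 without both replicate 1 arrays (0.0182). It was -0.01 without macrophage replicate 2 and 0.06 without macrophage replicate 3 (range of adjusted p over 15 alternatives, 0.0182 to 0.995). Esr2 differed by 0.25 ± 0.14 and did not pass.

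Among the retinoid X receptors, the common partners of the vitamin D, thyroid hormone, PPAR and LXR receptors, Rxra (probe set 10470446) was lower. Its log2 values were 5.78, 6.02 and 6.19 on the dendritic and 7.17, 7.61 and 7.49 on the macrophage arrays. No dendritic array reached the lowest macrophage array, and the difference was -1.43 ± 0.16 (limma adjusted p = 0.000257). Rxrb differed by 0.13 ± 0.16 with a 95% interval from -0.23 to 0.48, and Rxrg by 0.11 ± 0.15, neither of which passed. Rxra and Vdr, partners in 1 complex, thus differed in opposite directions.

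Of the fatty acid receptors, Ppard (probe set 10443332), which is broadly expressed and drives fatty acid oxidation, had log2 values of 6.73, 6.39 and 6.44 on the dendritic and 6.93, 7.10 and 7.23 on the macrophage arrays. The populations did not overlap, with dendritic replicate 1 only slightly under macrophage replicate 1. The difference of -0.57 ± 0.15 was called (limma adjusted p = 0.0212). In limma it no longer passed when dendritic replicate 2 (adjusted p = 0.0795) or 3 (0.0774) or macrophage replicate 2 (0.0782) or 3 (0.0872) was left out, with a difference between -0.75 and -0.50 over all alternatives. Ppara, the liver-type receptor, differed by 0.13 ± 0.14 and did not pass.

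Among the clock receptors, Nr1d1 (Rev-erb-alpha; probe set 10390691), which represses the clock gene Arntl, was lower. Its log2 values were 5.15, 5.17 and 5.35 on the dendritic and 5.98, 6.11 and 6.15 on the macrophage arrays, without overlap. The difference was -0.85 ± 0.12 (limma adjusted p = 0.00104). Nr1d2, its close paralog, differed by -0.24 ± 0.18 with overlapping arrays (limma adjusted p = 0.477), -0.04 without macrophage replicate 1 and -0.13 without both replicate 1 arrays. Rora, which activates the elements that Nr1d1 represses, had 6.83, 6.83 and 6.79 on the dendritic and 6.56, 6.43 and 6.63 on the macrophage arrays. These did not overlap, yet the difference of 0.28 ± 0.12 did not pass (limma adjusted p = 0.155; 0.0418 with array weights). Rorb differed by -0.13 ± 0.13.

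Nr1d1 and Thra, which both fell, overlap each other in the RefSeq annotation of GRCm38.p6 by 1075 bases and are known to lie on opposite strands. In the same annotation Nr4a2, Thrb, Nr2c2, Nr1i3 and Esrra overlap protein-coding genes outside the list, by 670, 1663, 3547, 1044 and 52 bases. The probe positions were not used here, so the part of these overlaps in the differences was not tested. The paralogous neighbours Nr1d2 and Thrb did not pass.

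The other orphan receptors differed little. Of 8 measured NR2 and HNF4 genes none was called in limma, and 1 (Nr2c1) had an unadjusted p under 0.05. The lowest of them was Nr2c1 (TR2), with log2 values of 5.19, 4.85 and 5.11 on the dendritic and 5.91, 5.35 and 5.37 on the macrophage arrays. Replicate 1 was the highest in each population, and the difference was -0.49 ± 0.18 (limma adjusted p = 0.0929). With the replicate number as a block Nr2c1 was called (limma adjusted p = 0.0267). Its partner Nr2c2 (TR4) differed by 0.34 ± 0.19 and did not pass. Nr2f6, a repressor of T cell cytokine genes, differed by 0.16 ± 0.13 and did not pass. The 3 oestrogen-related receptors lay between -0.15 (Esrra) and 0.21 (Esrrg), and the bile acid and xenobiotic receptors Nr1h4, Nr1i2 and Nr1i3 differed by 0.0226, 0.0124 and -0.0045. None of these 6 was called in limma, and 0 had an unadjusted p under 0.05. Of the 5 NR5, NR6 and NR0B genes none was called in limma and 1 (Nr5a2) had an unadjusted p under 0.05, with differences from 0.08 (Nr5a1) to 0.28 (Nr5a2). The NR0B proteins lack the DNA-binding domain and act as corepressors of other receptors.

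The 31 receptors that did not pass had differences from -0.49 to 0.37, with adjusted p from 0.0929 upward. Each of their 95% intervals, taken alone, lay within 1 of 0 on the log2 scale (from -0.90 to 0.78 at the widest), so it left out a 2-fold difference in RMA values. Of the 38 receptors 18 lay under the median of all genes (4.99 to 5.16) on all 6 arrays. They include Ppara, Rxrg, Nr3c2, Nr1h4, Nr0b1 and Nr0b2, and their differences ran from -0.13 to 0.37. RMA compresses differences of dim probe sets. The populations did not overlap for 13 receptors, 8 with the dendritic arrays higher and 5 with them lower. Over all genes 34.0% did not overlap, 17.3% and 16.7% in these directions.

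Of the nuclear receptors outside this list, 7 were measured and 1 was lower, Pparg (-1.90 ± 0.29, limma adjusted p = 0.00132), with log2 values of 3.91 to 4.34 on the dendritic and 5.33 to 6.54 on the macrophage arrays. Nr1h3 (LXR-alpha) differed by -0.45 ± 0.20, Rara by -0.37 ± 0.25 and Rarg by 0.02 ± 0.13, and none of these passed. Rarb, Nr1h5 and Pgr did not pass either. Both Pparg and Rxra, the subunits of the PPAR-gamma dimer, were thus lower in the dendritic population.

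Coregulators carry the output of the receptors. Of 21 coactivators 5 were higher and 1 was lower (28.6% called, against 21.6% of all genes), with a median difference of 0.07. Ncoa7, an oestrogen receptor-associated coactivator, had log2 values of 8.74, 8.72 and 8.98 on the dendritic and 6.92, 6.80 and 6.89 on the macrophage arrays, a difference of 1.94 ± 0.13 (limma adjusted p = 8.79e-06). The p160 coactivators Ncoa2 (1.21 ± 0.16) and Ncoa3 (0.82 ± 0.12) were higher and Ncoa1 differed by -0.13 and did not pass. The PGC-1 coactivators of mitochondrial genes differed in opposite directions. Ppargc1b had 4.23, 5.10 and 4.95 on the dendritic and 5.78, 6.15 and 5.99 on the macrophage arrays (-1.21 ± 0.22, limma adjusted p = 0.00402). Ppargc1a differed by 0.75 ± 0.17 (limma adjusted p = 0.0110), with its values between 2.99 and 4.25, all under the array median.

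Of 11 measured corepressors 4 were higher and 1 was lower (45.5% called, against 21.6% of all genes), with a median of 0.36. Nrip1 (RIP140), which ligand-bound receptors recruit to repress metabolic genes, had log2 values of 8.56, 8.15 and 8.12 on the dendritic and 6.67, 6.35 and 6.39 on the macrophage arrays. The gap held on every array, with a difference of 1.81 ± 0.16 (limma adjusted p = 5.43e-05). Of the corepressor exchange factors, Tbl1x was higher (1.04 ± 0.13) and its paralog Tbl1xr1 was lower (-0.85 ± 0.16, limma adjusted p = 0.00498). The histone demethylase Kdm1a was also higher (0.65 ± 0.14). Chaperones of the steroid receptors were called in 2 of 15 cases (13.3%, against 21.6%), both higher. They were Cdc37 (0.74 ± 0.15) and Hsp90aa1 (0.63 ± 0.19, limma adjusted p = 0.0492, called in 8 of 15 alternatives, with adjusted p from 0.00540 to 0.174). Hsp90aa1 lost its call without any 1 array except macrophage replicate 1, and also when a gene's probe sets were averaged or all probe sets were tested.

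**Figure D4:**
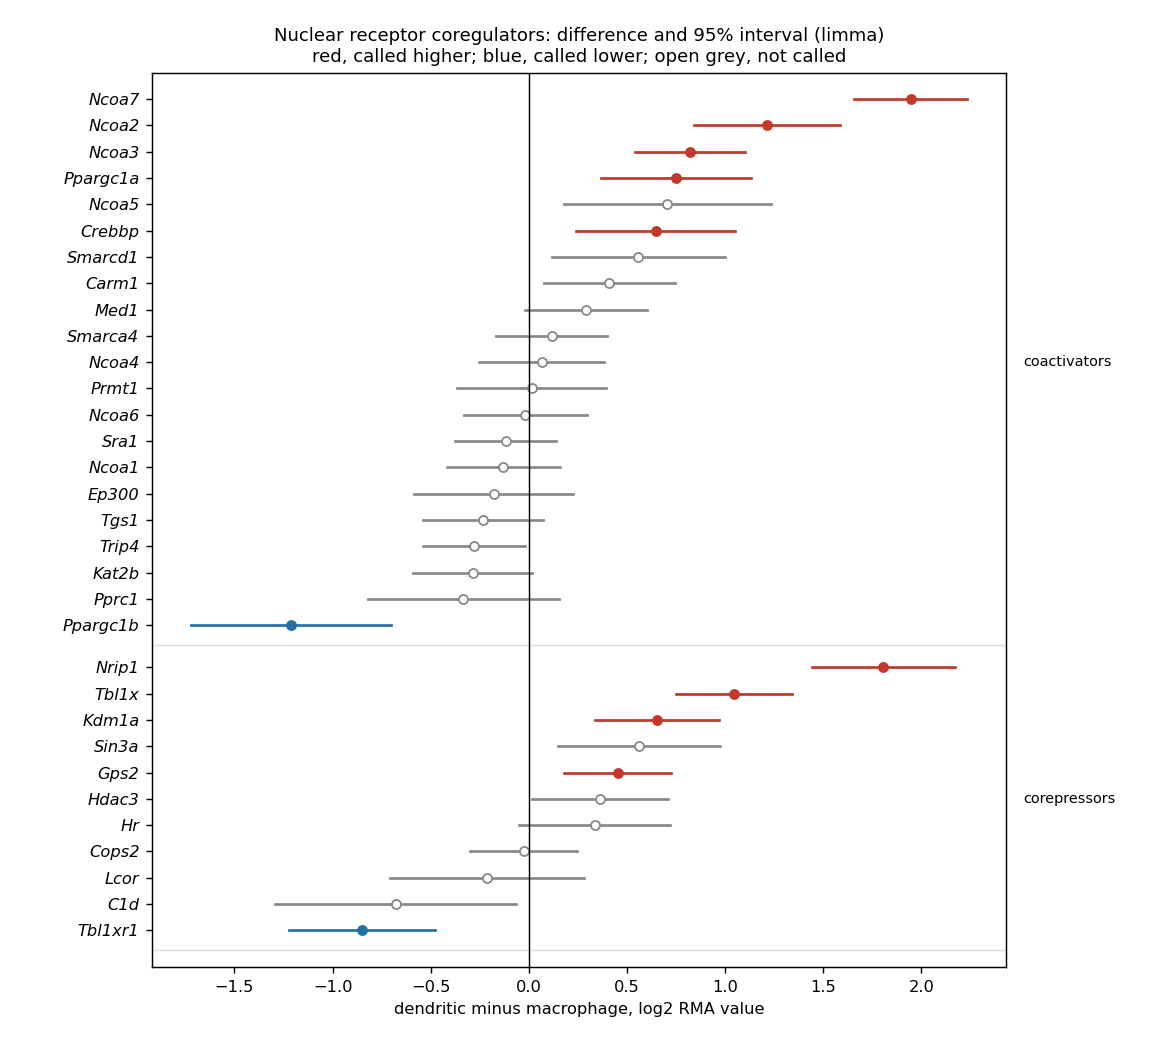
Difference (dendritic minus macrophage, log2 RMA value, horizontal axis) of 21 coactivators and 11 corepressors of nuclear receptors with 95% intervals from limma. The largest increases are Ncoa7 at 1.94 and Nrip1 at 1.81, and the blue genes Ppargc1b and Tbl1xr1 lie at -1.21 and -0.85.

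Genes near each receptor in its pathway were taken from lists of known targets and enzymes, with all genes called at 21.6% as the background. That share depends on level. With genes under the median level left out, 1840 of 9969 genes were higher and 2207 lower. Of 107 pathway genes left by this filter, coregulators and chaperones included, 21 were higher and 30 lower. The share of a list beside 21.6% is thus no result about the list. Of 17 clock genes 3 were higher and 3 lower (35.3% called). Nfil3, a repressor that Nr1d1 is known to hold down, was higher (1.16 ± 0.14), as was the E-box repressor Bhlhe40 (1.77 ± 0.19). Its paralog Bhlhe41 was lower (-2.98 ± 0.19), as was Clock (-1.07 ± 0.21, limma adjusted p = 0.00560). Arntl, the best known target of Nr1d1 and Rora, differed by 0.32 and did not pass (limma adjusted p = 0.299). The calls of Hlf (0.64 ± 0.19, limma adjusted p = 0.0442) and Cry1 (-0.46 ± 0.13, limma adjusted p = 0.0288) held in 6 of 14 and 6 of 15 alternatives. Hlf lost its call without any 1 array except dendritic replicate 2, and Cry1 without any 1 array except dendritic replicate 3. Without both replicate 1 arrays Hlf was 0.36 (limma adjusted p = 0.155) and Cry1 was -0.37 (limma adjusted p = 0.0905).

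Of 16 glucocorticoid receptor targets 4 were higher and 5 lower (56.2% called, against 21.6% of all genes), with a median of -0.12. The phospholipid-binding protein Anxa1 (-3.42 ± 0.46), the kinase Sgk1 (-3.02 ± 0.35) and the transcription factor Cebpd (-1.57 ± 0.13) were lower. The NF-kB inhibitor Nfkbia (1.61 ± 0.14), the phosphatase Dusp1 (1.14 ± 0.25) and the mTORC1 inhibitor Ddit4 (0.86 ± 0.20) were higher, the last losing its call without macrophage replicate 2 (limma adjusted p = 0.0636). Fkbp5 and Tsc22d3, which are widely used as readouts of the receptor, differed by -0.09 and -0.21 and did not pass (limma adjusted p = 0.834 and 0.483). These lists hold genes with many other inputs, so their counts are a description of the genes and not of a receptor's activity.

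Of 23 PPAR-alpha and PPAR-delta targets 9 were lower and 4 higher (56.5% called), with a median of -0.33. The lipid droplet protein Plin2 (-2.10 ± 0.44), the carnitine transferase Cpt1a (-1.41 ± 0.23) and the medium-chain dehydrogenase Acadm (-1.10 ± 0.18) were lower. The carnitine carrier Slc25a20 (0.97 ± 0.22), the thioesterase Acot2 (0.80 ± 0.16) and Fabp1 (0.60 ± 0.17, called in 8 of 14 alternatives with limma adjusted p from 0.00413 to 0.134) were higher. Fabp1 lost its call without any 1 array except dendritic replicate 1. Pdk4, a sensitive target of PPAR-delta, differed by 0.25 and did not pass (limma adjusted p = 0.175). Its values lay between 2.71 and 3.05, all under the array median, so it is not known whether it was expressed. Plin2 had its highest value of each population in replicate 1, at 8.29 and 10.27. Of 18 ERR and PGC-1 targets 8 were lower and 2 higher (55.6% called), with a median of -0.24. These counts include the coactivators themselves, Ppargc1b among the lower and Ppargc1a among the higher genes. Sod2 (-2.18 ± 0.21), also a target of NF-kB, and the respiratory subunit Sdhb (-1.20 ± 0.15) were the lowest besides Ppargc1b.

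Of 8 measured genes of vitamin D activation and response 1 was called (12.5%, against 21.6% of all genes), the sugar phosphate exchanger Slc37a2, which was lower (-0.75 ± 0.22, limma adjusted p = 0.0397, called in 9 of 15 alternatives, with adjusted p from 0.0298 to 0.128). It lost its call without dendritic replicate 1 or 2 or macrophage replicate 1, and without both replicate 1 arrays it was -0.42 (limma adjusted p = 0.0885). The activating enzyme Cyp27b1 differed by 0.07 and did not pass (limma adjusted p = 0.862), with its values between 3.53 and 3.88, all under the array median. The inactivating enzyme Cyp24a1 was not analysed here. Of 10 thyroid hormone genes 2 were called (20.0%, against 21.6%). The transporter Slc16a10 was lower (-1.70 ± 0.31, limma adjusted p = 0.00380) and the malic enzyme Me1 higher (0.80 ± 0.16). Slc16a10 had log2 values of 3.59, 4.16 and 4.09 on the dendritic and 6.38, 5.52 and 5.04 on the macrophage arrays.

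Of 17 genes of steroid and oxysterol metabolism 5 were lower and 1 was higher (35.3% called, against 21.6% of all genes). Srd5a3, a reductase of the steroid 5-alpha-reductase family that also makes dolichol (-1.71 ± 0.15), and the dehydrogenases Hsd17b12 (-1.57 ± 0.13) and Hsd17b11 (-1.40 ± 0.31) were the lowest. Hsd3b7, which acts on oxysterols on the way to bile acids, was higher (0.81 ± 0.14). Hsd11b1, which regenerates active glucocorticoid inside cells, differed by -0.51 and did not pass (limma adjusted p = 0.0756), but was called with array weights, without either replicate 1 array and without both (-0.79, limma adjusted p = 0.00215). Of 14 targets of the xenobiotic and bile acid receptors 1 was called (7.14%, against 21.6%), the efflux pump Abcc3 (-1.22 ± 0.19).

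**Figure D5:**
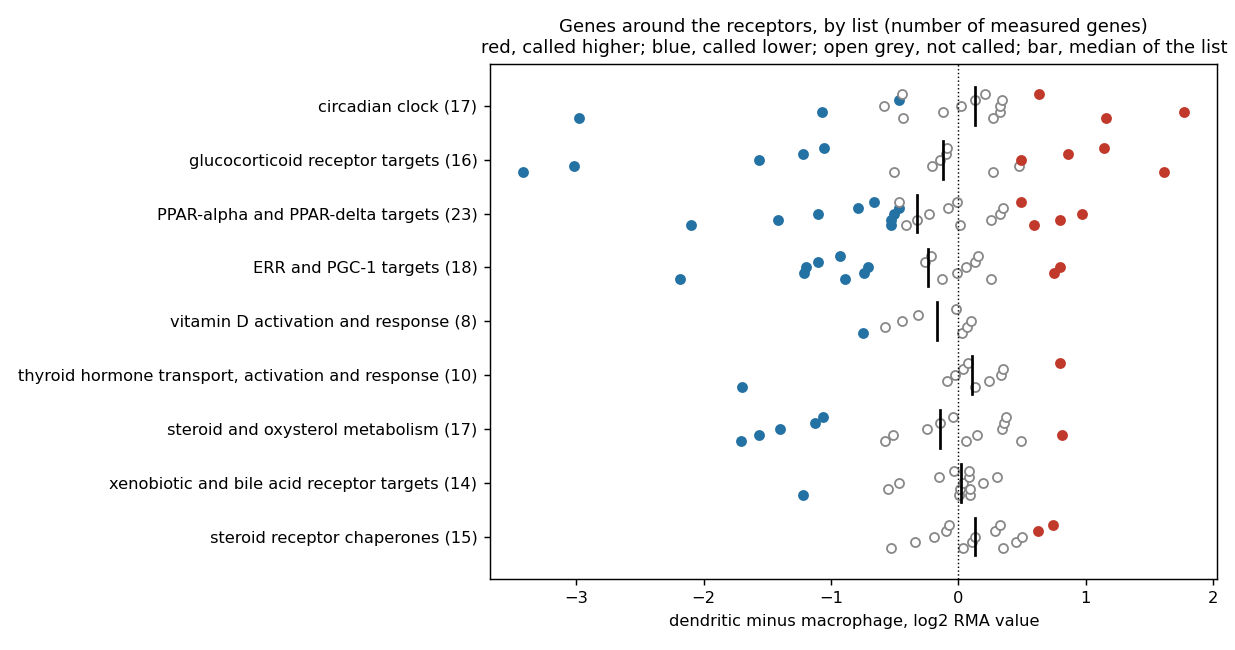
Difference (dendritic minus macrophage, log2 RMA value, horizontal axis) of each measured gene in 9 lists of receptor targets, enzymes and chaperones, with the median of each list as a bar. The medians lie between -0.33 (PPAR-alpha and PPAR-delta targets) and 0.13, and the lowest gene is Anxa1 at -3.42; 3 genes stand in both the PPAR and the ERR list.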

How the data were processed

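The deposited table holds log2 values of 35556 probe sets on 6 arrays, which per the submitters' processing notes the authors computed by RMA under R 3.0.2; no source used here names the arrays normalized together or a filter. Exactly 1 symbol in the platform's gene table was held by 21789 probe sets, several by 1621, and 12146 had none. RefSeq identifiers (GRCm38.p6) matched 21698, and 0 symbols changed. For 999 genes with several probe sets the brightest on average was used, giving 19938 genes.

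All genes were fitted together with limma 3.58.1 (R 4.3.3; lmFit, eBayes, 2-sided tests) on population alone, without a filter on level, and p-values were adjusted by Benjamini-Hochberg over all of them. The fit was tested on simulated data. Tables and figures used Python 3.11.15, pandas 2.3.3 and matplotlib 3.10.9. The receptors and gene lists were chosen with earlier results of these data known, and the promoter motifs after the values were seen. Besides TGACG, the NGFI-B element AAAGGTCA, the receptor hexamer AGGTCA (which it contains), the E-box CACGTG and the GC box GGGCGG were searched on both strands. Their share of the 50 receptor windows was 4.0%, 16.0%, 8.0% and 42.0%, against 1.51%, 16.3%, 7.15% and 35.7% of all windows. Named are all receptors and, per list, up to 3 called genes with the largest difference in each direction; others were named as examples after their values were seen.

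Arrays with the same replicate number deviated together from their population means (r = 0.385, 0.147 and 0.272 across genes, which are not independent replicates). Dendritic replicate 2 correlated as well with macrophage replicate 3 (0.155), and dendritic replicate 3 also correlated with macrophage replicate 2 (0.128). The labels give the number no meaning. The reported differences were fitted on population alone. Since every pair of equal numbers passed 0.1, an alternative fit treated these as pairs, with a replicate block. Other alternatives left out each array, normalized by quantiles again, centred on the 75th percentile, filtered on level, weighted arrays, changed the prior variance, averaged a gene's probe sets or tested all probe sets.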

Additional observations from a re-analysis of the deposited data

How the results depend on the processing

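Of 38 receptors 33 stayed on their side of the threshold in every alternative in which they were tested (15 for 17 receptors, and 14 for the 21 that the filter on level left out), among them 6 of the 7 called ones, the exception being Ppard. Rora, Esr1, Nr4a1 and Nr2c1 gained a call in 1 or 2 alternatives each, as given beside their values. The count of receptors higher rose from 3 to 5 with array weights, which added Nr4a1 and Rora, and was 3 without any 1 array; the count lower was 3 to 5 without 1 array. Without both replicate 1 arrays, a setting chosen after seeing the data, 4 were higher and 5 lower. With the replicate number as a block 3 receptors were higher and 5 lower, where Nr2c1 was the receptor added, and the block changed no other call of a receptor. Over all genes 1487 to 2118 were higher and 1824 to 2507 lower without 1 array, and 2429 and 2778 with the block. Of the pathway genes 24 of 167 were higher and 34 lower, with 17 to 23 and 30 to 37 without 1 array. Of 53 pathway genes named by the rule or as examples, 46 stayed on their side of the threshold in every alternative in which they were tested, and no called gene changed direction. The cause of these changes was not tested. With 3 arrays per population and no detection calls, differences of dim receptors are the least certain.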
